A study of Mus musculus with 201 samples.

Results

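AKR/J is a classical albino inbred mouse strain, known for its thymic lymphomas and for the endogenous retroviruses it expresses. Its hippocampus was set here against that of the other 12 classical inbred strains of one expression survey. AKR/J had 2 of the 27 arrays of classical strains and of 201 arrays in all, and was taken by its strain label. The recombinant inbred panels BXD and CXB, the F1 hybrids and the wild-derived strains CAST/EiJ, PWD/PhJ, PWK/PhJ and WSB/EiJ were not set against AKR/J. Their arrays, apart from a mixed-sex one, stayed in the statistical fit, which drew its spread, sex and batch effects from all panels. Genes were singled out where both AKR/J arrays lay outside the range of the other classical arrays.

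Each array measured RNA pooled from hippocampi of several mice of 1 strain and sex, with no treatment labelled, on the Affymetrix M430 2.0 chip, in which a set of short oligonucleotide probes (a probe set) reads each transcript. The AKR/J female array came from a pool of 3 mice aged 66 days and was run in batch 5. The AKR/J male array came from a pool of 4 mice aged 66 days and was run in batch 6. Both pools were labelled as coming from the Jackson Laboratory (JAX). The other 25 arrays, 13 female and 12 male, were from 129S1/SvImJ, A/J, BALB/cByJ, BALB/cJ, C3H/HeJ, C57BL/6ByJ, C57BL/6J, DBA/2J, KK/HIJ, LG/J, NOD/LtJ and NZO/HlLtJ mice, at mean pool ages of 51 to 96 days and with 2 to 4 mice a pool. The labels do not say whether the 2 AKR/J pools shared parents or cages, so the spread between them covers these pools only. Values are the authors' PDNN scores (a summary from the positional-dependent nearest-neighbour model of probe binding). Their range is that of logarithms but no source used here gives the base, so that differences are in PDNN units and not folds.

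Mice of an inbred strain are nearly identical in genotype, so strains are compared to find levels that go with a genotype. The hippocampus is built of pyramidal and dentate granule neurons with interneurons and glia. Per the labels' protocols the hippocampi were dissected nearly complete, with varying amounts of subiculum and fimbria. The 11 measured pyramidal neuron markers averaged 9.41 in the AKR/J female and 9.36 in the AKR/J male, against 9.22 to 9.56 in the other 25 arrays. The 11 dentate granule neuron markers averaged 8.72 and 8.62 in the AKR/J arrays, against 8.46 to 8.80 in the others. Both AKR/J arrays therefore lay within the range of the other arrays for these lists. The dentate list includes Penk, which is also on the striatal list below. Penk read 10.21 in the AKR/J male, against 8.14 to 9.02 in the others, and so raised the dentate mean of that array. The dentate mean without Penk was not worked out. In bulk tissue, fewer cells of a type and less RNA per cell cannot be told apart.

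Over all probe sets, the deviations of the 2 AKR/J arrays from the mean of the classical arrays correlated at 0.036, against -0.406 to 0.59 within the other 11 strains with more than 1 array, of which 4 lay below AKR/J. By the same measure the AKR/J male correlated at 0.48 with a C57BL/6ByJ array and the AKR/J female at 0.31 with a NZO/HlLtJ array. The labelled share of RMA outlier probe sets was 0.04 in the AKR/J female and 0.11 in the AKR/J male, against 0.01 to 0.19 in the others. The 3′/5′ ratio of Actb, a measure of RNA integrity, was 1.46 in the AKR/J female and 1.99 in the AKR/J male, against 1.13 to 3.71 in the others. Genes of the striatum, the neighbouring forebrain region of dopamine-receptive spiny neurons, stood high in the AKR/J male alone. Of 15 measured striatal genes out of 17 listed, a list drawn up after some of their values had been seen, 11 were higher in the AKR/J male than in any of the other 25 arrays, and none was in the AKR/J female. Their mean level was 8.75 in the AKR/J male and 8.18 in the AKR/J female, against 8.14 to 8.28 in the others.

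Penk, the enkephalin precursor, read 8.42 in the AKR/J female and 10.21 in the AKR/J male, against 8.14 to 9.02 in the others. Gpr6, an orphan receptor of striatal projection neurons, read 7.41 and 8.52, against 7.31 to 7.59. Tac1, the substance P precursor, read 8.39 and 9.48, against 8.25 to 8.84. Drd1, the D1 dopamine receptor, read 7.87 and 8.48, against 7.78 to 8.13. In each of these 4 genes the AKR/J female lay within the other strains and the AKR/J male alone above them. Of the 15 striatal genes, 7 passed the limma test between AKR/J and the other strains (4.07% of all probe sets did), and 0 did without the AKR/J male. Since the list was drawn up from this pattern, its count is a description. The part of this signal in the AKR/J results was not tested beyond leaving that array out, and the counts of calls, of probe sets outside the range and of named genes below are also given without it. The neighbour, chromosome and single-strain counts rest on both AKR/J arrays.

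**Figure D1:**
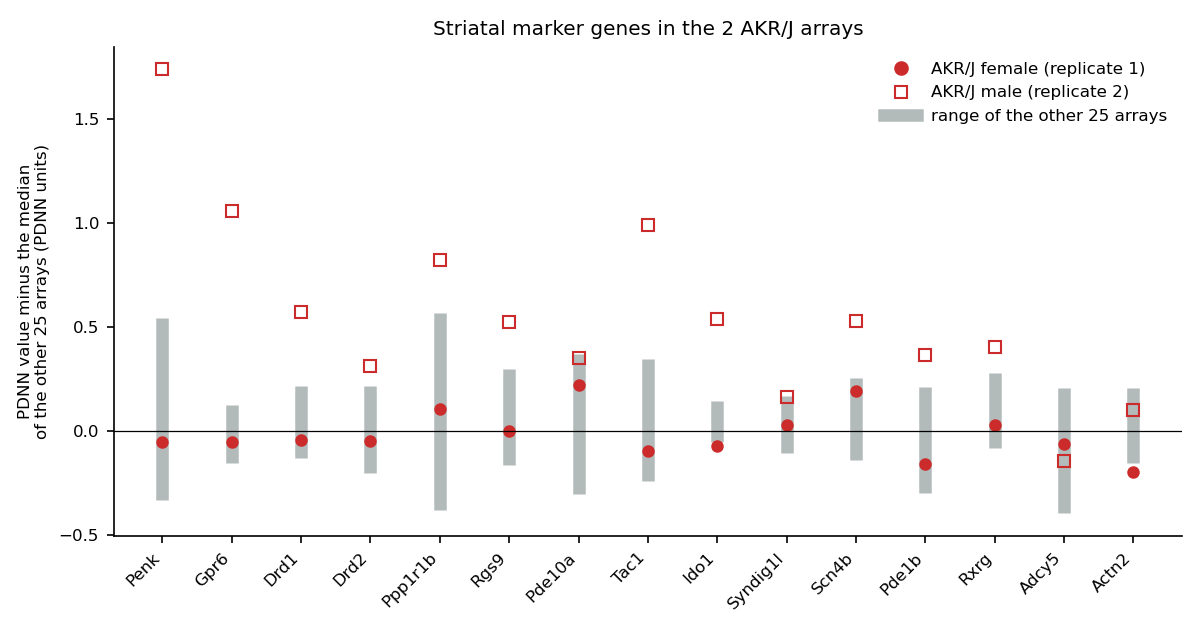
Striatal marker genes: the y axis gives each AKR/J array's PDNN value minus the median of the other 25 classical arrays, for 15 genes along the x axis. Filled circles are the AKR/J female, open squares the AKR/J male, and grey bars the range of the other 25 arrays. The male lies above the bar for 11 genes and the female for none.

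Against the equally weighted mean of the other 12 strains, AKR/J differed at 1835 of 45037 probe sets (4.07%; limma with strain, sex and batch, adjusted p under 0.05), of 1352 named genes. Of these, 873 (1.94%) were higher and 962 (2.14%) lower in AKR/J, with a median absolute difference of 0.258 PDNN units. Without the AKR/J male array the same model called 213 (99 higher, 114 lower), and without the AKR/J female array it called 4063. In these fits AKR/J is a single array assumed to vary like the other strains, so a call lost there can come from fewer arrays and does not show that a difference rested on the array left out. In the 27 classical arrays alone, where the spread came from those arrays and not from all panels, 165 probe sets passed. Where the 13 fitted strain values were used as replicates, so that the error was the spread between strains, 5 probe sets (0.0111%) passed. These were Odr4, Pomt1, Dnajb2, Gpr6 and the unnamed probe set 1438895_at. Gpr6 rested on the AKR/J male alone.

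**Figure D2:**
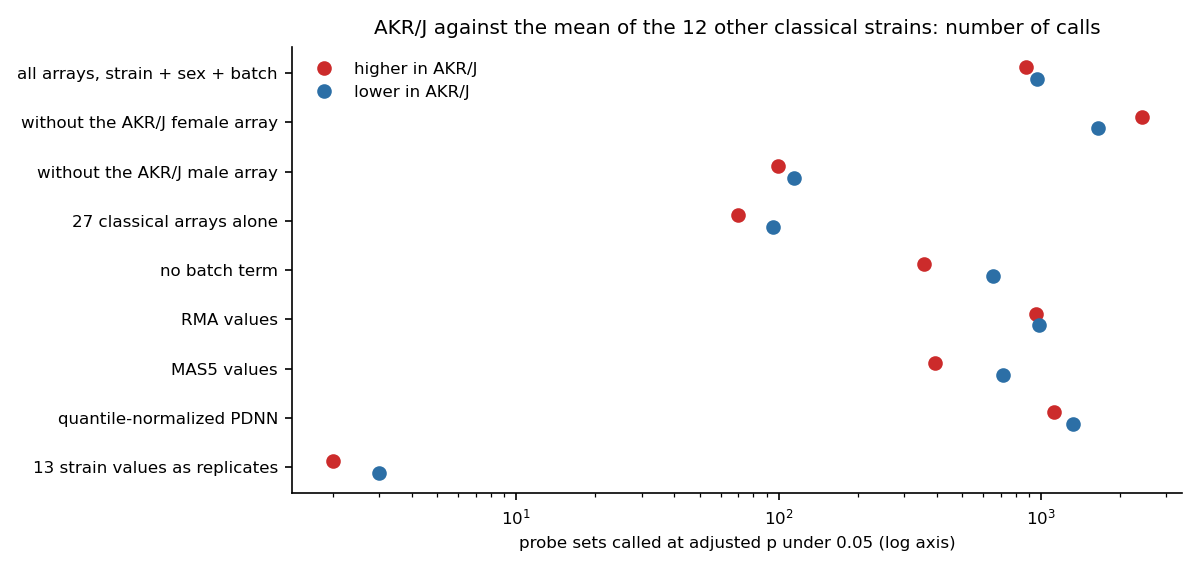
Number of probe sets called between AKR/J and the mean of the 12 other classical strains (x axis, log scale) under 9 settings (y axis), higher in AKR/J in red and lower in blue. The counts run between 5 in all with strain values as replicates and 4063 in all without the AKR/J female array.

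Both AKR/J arrays lay outside all the other 25 classical arrays at 321 probe sets (0.713%), 123 (0.273%) above and 198 (0.440%) below. Of these, 193 (0.429%) also differed from the mean of the other strains, 66 (0.147%) above and 127 (0.282%) below, in 142 named genes. Most stood out by little. The median gap between the nearer AKR/J array and the nearest other array was 0.034 units, and 27 had a gap of 0.1 or more. Just outside the range lay Fabp5 and Kcnj16, by 0.001 each, and just inside it lay Dnttip2, by 0.001. Of the 193, 41 were still called without the AKR/J male, 139 without the AKR/J female and 39 in both. The range rule and the test read the same arrays, so the p beside a gene below describes that fit and is not a separate check.

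**Figure D3:**
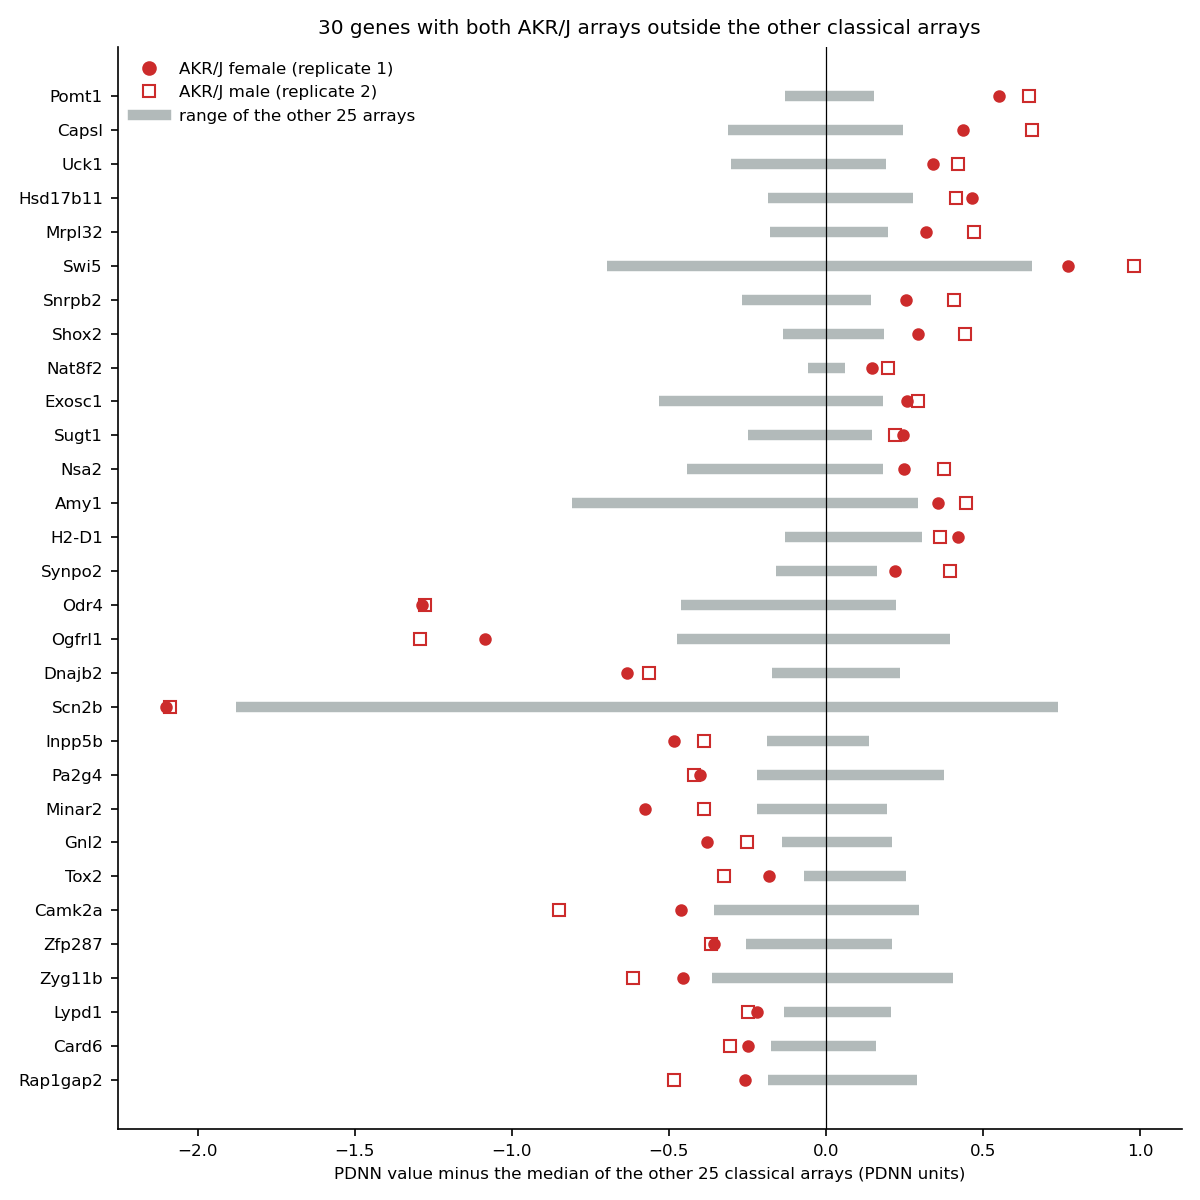
The 15 named genes with the largest gap above and the 15 with the largest gap below the other classical arrays. The x axis gives the PDNN value minus the median of the other 25 arrays, with the AKR/J female as filled circles, the AKR/J male as open squares and the range of the other 25 as grey bars. No AKR/J point lies on its gene's bar, and Odr4 and Ogfrl1 lie farthest from it.

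Only 5 probe sets (0.0111%) passed the stricter test that AKR/J lies beyond each of the 12 other strains, in which the largest of the 12 p-values was kept. They were Odr4, Ogfrl1 and 2 unnamed probe sets, all lower in AKR/J, and Pomt1, higher in AKR/J. In the 27 classical arrays alone 1 of the 5 passed, the unnamed 1455316_x_at. In the fit to all panels there were 103 at an unadjusted p under 0.05. Without the AKR/J male 1 remained, Odr4.

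Odr4 on chromosome 1, whose worm homologue is needed for odorant receptors to reach the sensory cilia, showed the widest gap. It read 7.95 in the AKR/J female and 7.96 in the AKR/J male, against a lowest of 8.78, a median of 9.24 and a highest of 9.46 in the other 25 arrays. Both sexes of AKR/J gave almost the same value, well below every other classical array. The difference from the mean of the other strains was -1.27 ± 0.0962 units (SE, limma adjusted p = 5.0e-19), and every one of the 12 strain contrasts passed. A further Odr4 probe set read 8.62 and 8.44 in AKR/J, against 8.82 to 9.39 in the others, and was also called lower (-0.56 ± 0.0849 units, limma adjusted p = 2e-06). Outside the classical strains, the low level returned in the 2 PWD/PhJ arrays, at 7.83 and 7.93, and in the 2 PWK/PhJ arrays, at 7.86 and 7.86. CAST/EiJ at 9.12 and WSB/EiJ at 9.01 and 9.01 lay with the other classical strains. None of the 134 BXD, 27 CXB or 6 F1 arrays, which descend from strains compared here, reached the AKR/J level for Odr4.

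Ogfrl1, also on chromosome 1 and named for its likeness to the opioid growth factor receptor, read 8.45 in the AKR/J female and 8.24 in the AKR/J male, against 9.06 to 9.93 in the others. The difference was -1.08 ± 0.0994 units (SE, limma adjusted p = 1.4e-14), and DBA/2J came nearest. Its other probe sets did not follow. The brightest Ogfrl1 probe set read 9.95 and 9.62 in AKR/J, against 9.45 to 10.26 in the others, and another read 8.23 and 8.18, against 7.84 to 8.45. Neither was called, so the low level belongs to 1 of 3 probe sets. With strain values as replicates Ogfrl1 missed the threshold (limma adjusted p = 0.58).

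Dnajb2 on chromosome 1, a neuron-enriched cochaperone of Hsp70, read 8.37 in the AKR/J female and 8.44 in the AKR/J male, against 8.83 to 9.23 in the others. Both AKR/J arrays lay below the whole of the other strains. The difference was -0.567 ± 0.0628 units (SE, limma adjusted p = 5.4e-11), and it passed against each of the 12 strains singly. It missed the test that AKR/J lies beyond every strain (limma contrasts, adjusted p = 0.091). The 6 nearest measured genes on either side of Dnajb2 gave no call by their brightest probe set. Of the 6 on either side of Odr4, Swt1 alone did, and it went the other way (0.163 ± 0.0438 units, limma adjusted p = 0.016), with both of its probe sets called higher. Around Ogfrl1, of the 6 on either side, Sdhaf4 was called higher and Rims1 and Col19a1 lower by their brightest probe set.

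**Figure D4:**
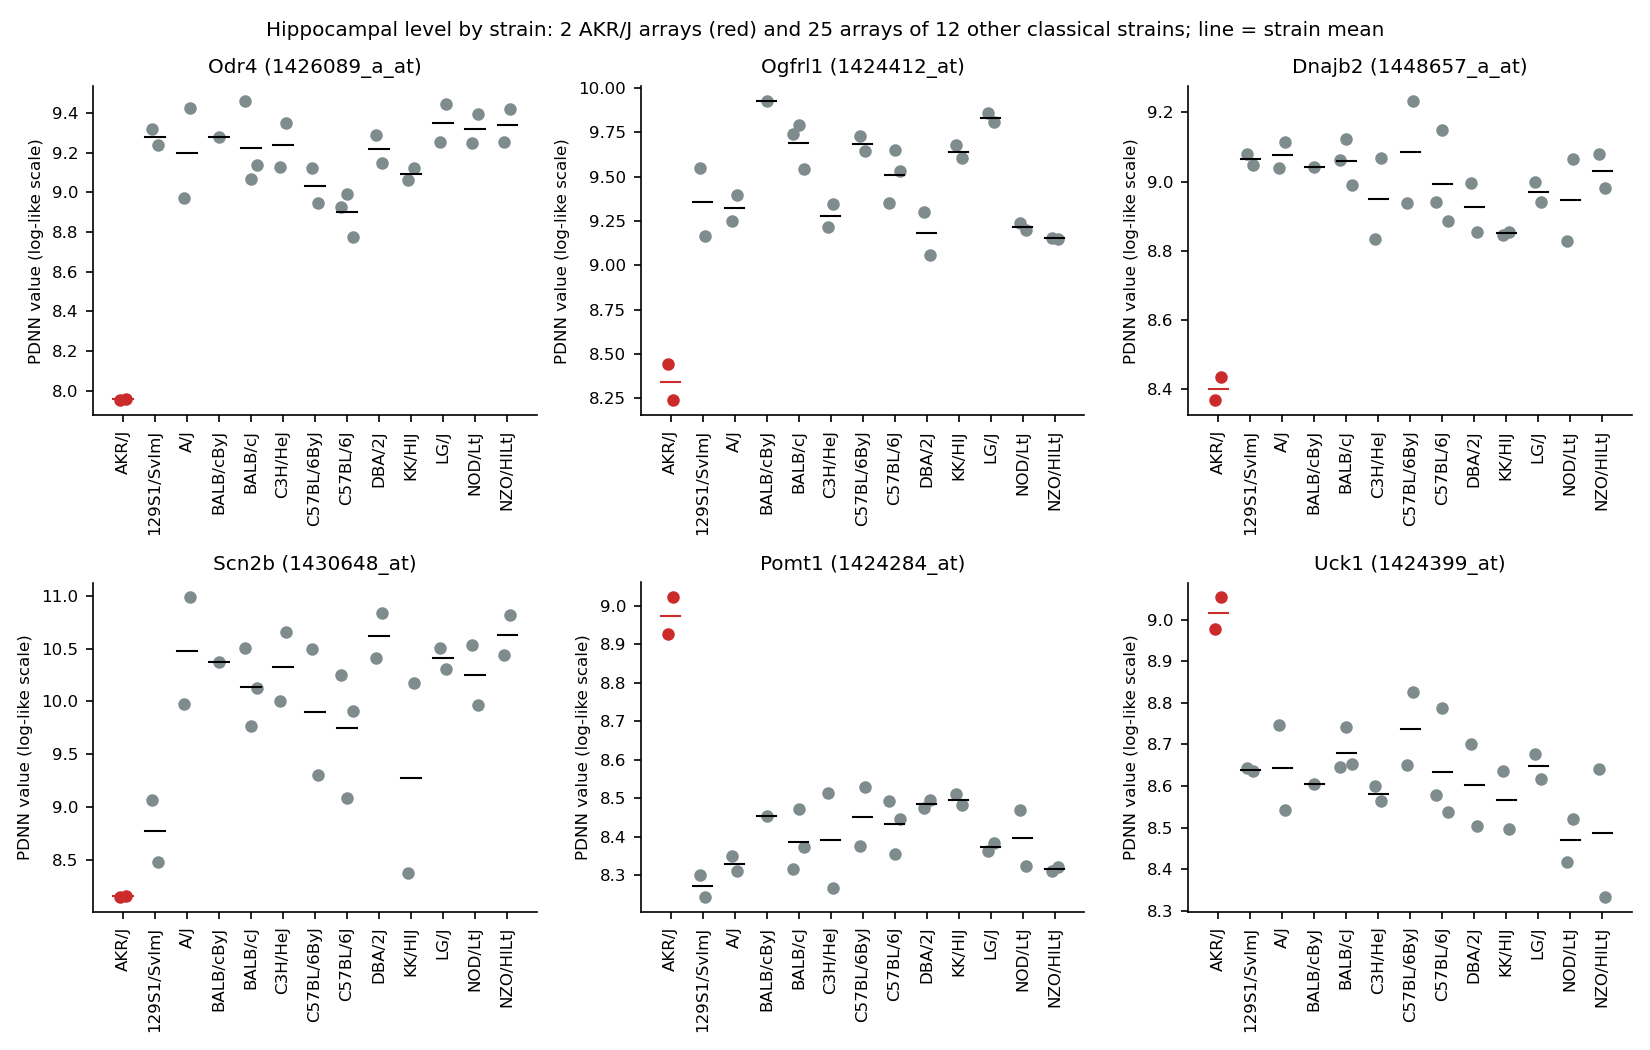
PDNN values (y axis) of 6 genes in each array of AKR/J (red) and of the 12 other classical strains (grey), with strains along the x axis and a line at each strain mean. The AKR/J points lie below all grey points for Odr4, Ogfrl1, Dnajb2 and Scn2b, and above all of them for Pomt1 and Uck1.

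On chromosome 2, a run of 3 consecutive measured genes was high in AKR/J. Pomt1, the mannosyltransferase that starts the sugar chains of dystroglycan, read 8.93 in the AKR/J female and 9.02 in the AKR/J male, against 8.24 to 8.53 in the others. The gap of 0.396 was the widest above the range among named genes. The difference was 0.566 ± 0.0525 units (SE, limma adjusted p = 1.6e-14), passed against each of the 12 strains, and held without either AKR/J array and with strain values as replicates (limma adjusted p = 0.020). Uck1, a uridine-cytidine kinase of the pyrimidine salvage pathway, read 8.98 and 9.05 in AKR/J, against 8.33 to 8.83 in the others (0.433 ± 0.0581 units, limma adjusted p = 5.3e-08). Swi5, a protein of DNA repair, read 10.07 and 10.28, against 8.60 to 9.95 (0.970 ± 0.130 units, limma adjusted p = 4.9e-08).

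The AKR/J level was not reached in any of the 174 arrays of the other panels for Pomt1, Uck1 or Swi5. Of these arrays, the BXD, CXB and F1 ones descend from strains compared here, and the other 7 are wild-derived. With strain values as replicates Uck1 (limma adjusted p = 0.22) and Swi5 (limma adjusted p = 0.27) missed the threshold. None of the other 10 genes within 6 places of Pomt1 was called higher. Prrc2b, the measured gene just before Pomt1, was lower in AKR/J (-0.373 ± 0.0857 units, limma adjusted p = 0.0033), and both of its probe sets were called lower. Golga2, just after Swi5, differed by -0.01 ± 0.0579 units and was not called.

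**Figure D5:**
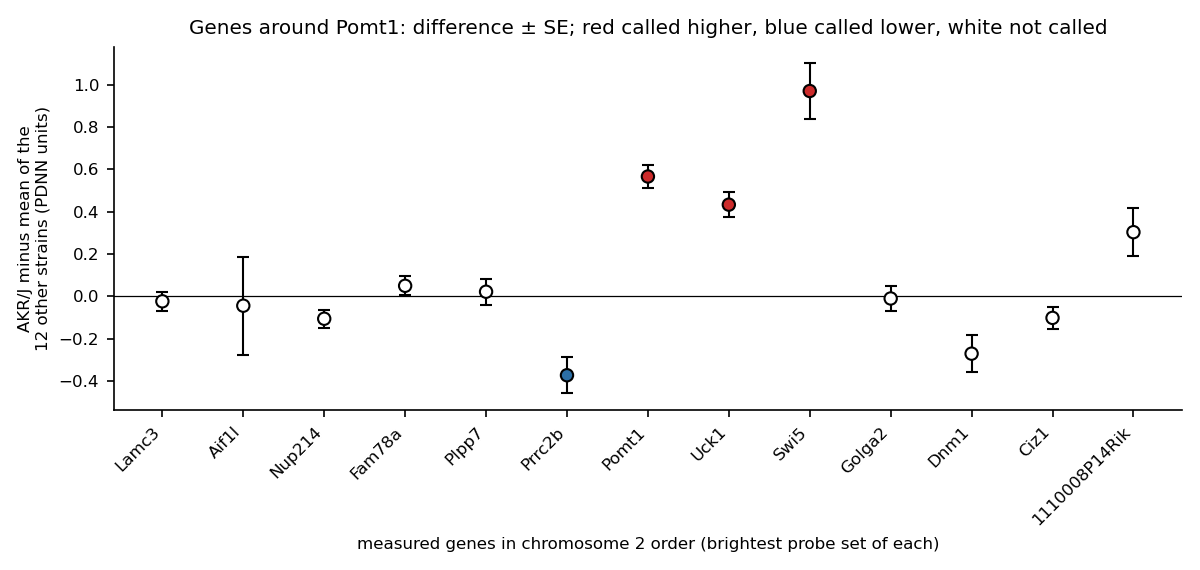
Difference between AKR/J and the mean of the 12 other strains (y axis, PDNN units, ± SE) for the 13 measured genes around Pomt1 in chromosome order (x axis), each by its brightest probe set. Pomt1, Uck1 and Swi5 are called higher, Prrc2b is called lower, and the other 9 are not called.

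Pomt1 and Uck1 lie end to end on opposite strands, with their starts at the outer ends of the pair. The bases before each start are shown because these neighbours moved together. They are the reference C57BL/6J sequence from RefSeq (GRCm38.p6), not that of AKR/J, at chr2:32236390-32236589 on the plus strand for Pomt1 and at chr2:32260106-32260355 on the minus strand for Uck1. Only bases outside every annotated gene are printed. Capitals mark GCGCA on either strand, one arm of the palindrome that the activator NRF1 binds.
Pomt1: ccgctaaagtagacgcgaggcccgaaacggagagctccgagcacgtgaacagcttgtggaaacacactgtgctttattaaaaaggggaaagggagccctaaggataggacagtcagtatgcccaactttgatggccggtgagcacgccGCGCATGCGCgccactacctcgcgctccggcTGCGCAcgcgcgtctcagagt
Uck1: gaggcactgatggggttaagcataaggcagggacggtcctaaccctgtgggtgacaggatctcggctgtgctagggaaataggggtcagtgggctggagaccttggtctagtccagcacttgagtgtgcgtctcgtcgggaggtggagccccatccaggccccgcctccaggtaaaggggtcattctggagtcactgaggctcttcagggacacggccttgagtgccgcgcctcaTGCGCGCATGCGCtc

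Counting both strands, with overlaps, GCGCA occurred 4 times in the 200 bases of Pomt1 and 3 times in the 250 bases of Uck1. Of the 32851 start sites in the reference table, 20.0% hold it in a stretch of 200 bases and 25.6% in one of 250. The TATA box (TATAAA, in 12.4% of all stretches of 250 bases), the ETS factor motif (CCGGAAG, in 6.91%), the SP1 motif (GGGCGG, in 32.7%) and the CCAAT box (CCAAT, in 33.8%) were searched on both strands as well. None of them occurred in either stretch. The motifs were chosen after these sequences had been read, and a match is a description of letters only.

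Neighbours among the 142 genes were sought along each chromosome. In 25 cases the next such gene stood within 10 measured genes, and 17 of the 25 pairs moved the same way. How many pairs would arise by chance was not worked out. Of the 193 probe sets called and outside the range, 127 lay below it, so a shared direction is common among them in any case. Both genes of a same-direction pair had a gap of 0.1 or more for Pomt1 with Uck1, Uck1 with Swi5, and Inpp5b with Gnl2 on chromosome 4, the last pair lower in AKR/J. By chromosome, probe sets that were called and outside the range made up 0.787% of those on chromosome 1, 0.727% on chromosome 13 and 0.666% on chromosome 4, against 0.416% of all placed probe sets.

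Among genes of neuronal signalling, Scn2b, the beta-2 subunit of voltage-gated sodium channels, had the largest difference of all calls. Scn2b read 8.15 in the AKR/J female and 8.16 in the AKR/J male, against a lowest of 8.37, a median of 10.25 and a highest of 10.98 in the others (-2.03 ± 0.318 units, limma adjusted p = 3.4e-06). The other strains were themselves far apart. The nearest were 1 KK/HIJ array at 8.37, whose fellow read 10.18, and the 2 arrays of 129S1/SvImJ at 9.07 and 8.47. AKR/J and 129S1/SvImJ did not differ past the threshold for Scn2b (-0.616 units, limma adjusted p = 0.48). A further Scn2b probe set was also called lower (-0.409 ± 0.114, limma adjusted p = 0.020) and another was not (0.0254 ± 0.0695). In the BXD panel this Scn2b probe set ran over 8.28 to 11.44.

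Camk2a, the alpha subunit of the calcium/calmodulin kinase of excitatory synapses, read 8.58 in the AKR/J female and 8.19 in the AKR/J male, against 8.69 to 9.34 in the others (-0.667 ± 0.111 units, limma adjusted p = 1.2e-05). None of its other 5 probe sets was called, and without the AKR/J male the value was -0.498 (limma adjusted p = 0.17). Lypd1, of the family that tunes nicotinic receptors, read 7.91 and 7.88, against 8.00 to 8.34 (-0.243 ± 0.0585 units, limma adjusted p = 0.0054). Its brighter probe set was called the other way, at 9.03 and 9.27 in AKR/J, against 8.26 to 9.35 in the others. Rap1gap2, which switches off the GTPase Rap1, read 9.11 and 8.88, against 9.18 to 9.65 (-0.364 ± 0.0674 units, limma adjusted p = 0.00012). Lypd1 and Rap1gap2 were not called without the AKR/J male either, at -0.217 and -0.261 units in that order.

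The next 6 of the 30 named genes act on RNA or in ribosomes, a grouping made after their values were seen. The share of all genes with such roles was not counted. Exosc1, a subunit of the RNA-degrading exosome, read 8.73 in the AKR/J female and 8.77 in the AKR/J male, against 7.94 to 8.65 in the others (0.409 ± 0.0585 units, limma adjusted p = 2.8e-07). The nearest strain was 129S1/SvImJ, at 8.65 and 8.59, and AKR/J did not differ from it past the threshold (0.130 units, limma adjusted p = 0.41). Mrpl32, of the large mitochondrial ribosomal subunit, read 9.14 and 9.29, against 8.64 to 9.02 (0.384 ± 0.0678 units, limma adjusted p = 4.6e-05). Snrpb2, a protein of the U2 splicing particle, read 8.91 and 9.06, against 8.39 to 8.80. Nsa2, whose yeast counterpart acts in assembly of the large ribosomal subunit, read 9.43 and 9.56, against 8.74 to 9.36. Without the AKR/J male, Mrpl32 (0.271 units), Snrpb2 (0.223) and Nsa2 (0.251) were not called, and Exosc1 was (0.350 units, limma adjusted p = 0.014).

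Gnl2, a nucleolar GTPase, was lower, at 7.50 and 7.63 in AKR/J, against 7.75 to 8.10 in the others (-0.289 ± 0.0586 units, limma adjusted p = 0.00054). Pa2g4, a growth-regulated RNA-binding protein, was also lower, at 8.40 and 8.38, against 8.58 to 9.18 (-0.431 ± 0.0826 units, limma adjusted p = 0.00022). Both genes had further probe sets, 2 for Gnl2 and 4 for Pa2g4, and none of them was called. Gnl2 was the 1 named gene not called without the AKR/J female (limma adjusted p = 0.065). In the RMA table Pa2g4 missed the threshold (limma adjusted p = 0.065).

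The remaining genes above the range were of varied kinds. Capsl read 7.92 in the AKR/J female and 8.14 in the AKR/J male, against 7.17 to 7.73 in the others (0.536 ± 0.0816 units, limma adjusted p = 1.7e-06). Among the wild-derived strains WSB/EiJ matched AKR/J for Capsl, at 8.09 and 7.92. Hsd17b11, a lipid-droplet dehydrogenase, read 8.04 and 7.99, against 7.39 to 7.86 (0.422 ± 0.0536 units, limma adjusted p = 8.2e-09). Its nearest strain was C3H/HeJ, from which AKR/J did not differ past the threshold (0.227 units, limma adjusted p = 0.11). Amy1, the salivary type of amylase, read 8.55 and 8.64, against 7.39 to 8.49 (0.519 ± 0.0837 units, limma adjusted p = 6.5e-06), and the lowest of the others were both NOD/LtJ arrays, at 7.39 and 7.49. Hsd17b11 and Amy1 were called without either AKR/J array, and Capsl was not without the male (0.410 units, limma adjusted p = 0.080).

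Sugt1, a cochaperone of Hsp90, read 9.31 and 9.29 in AKR/J, against 8.82 to 9.21 in the others. Nat8f2, of the N-acetyltransferase 8 family, read 7.43 and 7.48, against 7.22 to 7.34. Shox2, a homeobox factor, read 7.62 and 7.76, against 7.18 to 7.51, and Synpo2, an actin-binding protein, 7.79 and 7.96, against 7.41 to 7.73. None of these 4 genes was called without the AKR/J male, where the difference was 0.202 for Sugt1 (0.234 with both arrays), 0.167 for Nat8f2 (0.183), 0.317 for Shox2 (0.384) and 0.224 for Synpo2 (0.323). Thalamic markers stand beside Shox2 here, since the thalamus expresses it. Synpo2 is itself on the thalamic list, by a brighter probe set that was not called. Of 10 thalamic markers measured, 2 were called higher in AKR/J (5.46% of genes were called in either direction by their brightest probe set), Prkcd at 8.62 and 8.86 against 8.06 to 8.75, and Ramp3 at 7.64 and 8.00 against 7.39 to 7.82. The list averaged 8.34 and 8.37 in AKR/J, against 8.11 to 8.45 in the others, so AKR/J lay within their range. Neither Prkcd (0.181 units) nor Ramp3 (0.0777) was called without the AKR/J male, and the part of these markers in the Shox2 and Synpo2 results was not tested.

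Below the range, Inpp5b, a phosphatase of inositol phosphates and phosphoinositides, read 8.44 in the AKR/J female and 8.53 in the AKR/J male, against 8.73 to 9.05 in the others (-0.388 ± 0.0591 units, limma adjusted p = 1.7e-06). Minar2 read 8.25 and 8.44, against 8.60 to 9.02 (-0.471 ± 0.0811 units, limma adjusted p = 2.8e-05). Card6, a protein with a caspase recruitment domain, read 7.46 and 7.41, against 7.54 to 7.87 (-0.289 ± 0.0434 units, limma adjusted p = 1.2e-06). All 3 were called without either AKR/J array in turn and in the 27 classical arrays alone. Zfp287, a zinc finger protein, read 8.04 and 8.02, against 8.14 to 8.60, and missed the threshold in the RMA table (limma adjusted p = 0.29). Tox2, an HMG-box factor, read 8.83 and 8.69, against 8.94 to 9.27. Zyg11b, a substrate receptor of a cullin ubiquitin ligase, read 8.02 and 7.86, against 8.11 to 8.88, and 5 of the 7 wild-derived arrays lay at or below the AKR/J level. Tox2 and Zyg11b were not called without the AKR/J male, at -0.216 units for Tox2 (-0.282 with both arrays) and -0.421 for Zyg11b (-0.478).

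Of the 30 named genes, 17 were still called without the AKR/J male, 29 without the AKR/J female and 19 within the 27 classical arrays alone. All 3 of these held for 14 genes, 7 higher (Pomt1, Uck1, Hsd17b11, Swi5, Exosc1, Amy1 and H2-D1) and 7 lower (Odr4, Ogfrl1, Dnajb2, Scn2b, Inpp5b, Minar2 and Card6). Only Odr4, Pomt1 and Dnajb2 were called in every alternative. The direction was the same for all 30 in the authors' RMA and MAS5 tables, where 28 and 25 were called. The RMA table holds 197 of the arrays, with no column labelled BALB/cJ. Its columns labelled C57BL/6J replicates 1, 2 and 3 lay closest to C3H/HeJ, NOD/LtJ and BALB/cByJ arrays. In the PDNN table those were the closest arrays to BALB/cJ replicates 1, 2 and 3, so these RMA labels are in doubt. With these RMA columns left out, 2 of the 30 genes were not called. In 15 of the 30, none of the 174 arrays of the other panels reached the AKR/J level. Those were Pomt1, Uck1, Hsd17b11, Mrpl32, Swi5, Exosc1 and H2-D1 above, and Ogfrl1, Dnajb2, Scn2b, Inpp5b, Minar2, Gnl2, Zfp287 and Card6 below. The BXD, CXB and F1 arrays descend from strains among the other 12, which the range rule had already placed short of AKR/J. They are therefore no separate check. In 22 of the 30 genes, none of the 7 wild-derived arrays reached the AKR/J level.

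Probe sets of 1 gene often went apart. Of the 30 genes, 20 had further probe sets. In 2 of the 20, Odr4 and Scn2b, at least 1 further probe set was called the same way. In 3, H2-D1, Exosc1 and Lypd1, at least 1 was called the opposite way, and in 15 none was called. Whether strain sequence differences under the probes have a part in this was not tested, since the files give no AKR/J sequence.

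The class I genes of the major histocompatibility complex, which present peptides to T cells, held both kinds of probe set. AKR/J and C3H/HeJ carry the k haplotype there, and A/J carries the k form at the K end and the d form at the D end. The H2-D1 probe set 1450170_x_at read 8.34 and 8.28 in AKR/J, against 7.79 to 8.22 in the others, and the nearest were the C3H/HeJ arrays at 8.22 and 8.21 (0.373 ± 0.0459 units, limma adjusted p = 2.9e-09). The H2-D1 probe set 1451683_x_at read the other way, at 7.21 and 7.29 in AKR/J, against 7.34 and 7.27 in C3H/HeJ and 7.60 to 7.97 in the remaining strains (-0.483 ± 0.0763 units, limma adjusted p = 4.1e-06). The H2-K1 probe set 1425336_x_at read 7.47 and 7.54 in AKR/J, against 7.61 and 7.53 in C3H/HeJ, 7.60 and 7.60 in A/J, and 7.79 to 8.55 in the remaining strains (-0.512 ± 0.0892 units, limma adjusted p = 3.6e-05). Thus AKR/J grouped with C3H/HeJ at all 3 probe sets and with A/J at the H2-K1 one. Of 9 H2-D1 probe sets, 1 was called higher and 4 lower, and these near-identical genes share probe sequence, so their levels are uncertain.

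Some of the largest differences had no gene name in the annotation. The probe set 1433438_x_at read 9.08 in the AKR/J female and 8.95 in the AKR/J male, against 7.48 to 8.79 in the others (1.26 ± 0.0649 units, limma adjusted p = 1.8e-30). Both DBA/2J arrays came close to AKR/J, at 8.79 and 8.77, and KK/HIJ followed at 7.83 and 8.28. The probe set 1456182_x_at behaved alike, at 8.86 and 8.68 in AKR/J, against 7.41 to 8.56 in the others (1.14 ± 0.0630 units, limma adjusted p = 3.0e-28). The 2 unnamed probe sets beyond every strain were low in AKR/J. 1455316_x_at read 10.06 and 10.11, against 10.59 to 11.71 in the others, with CAST/EiJ at 9.75 and WSB/EiJ at 10.06 and 10.00. 1438895_at read 8.02 and 7.92, against 8.41 to 8.83.

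Over 17 gene lists, 14 of the 179 distinct genes measured passed the test by their brightest probe set (7.82%, against 5.46% over the brightest probe set of each of 18193 genes), 9 higher and 5 lower in AKR/J. Without the AKR/J male 1 did. That gene was Cyp46a1, the hydroxylase through which the brain disposes of cholesterol. Cyp46a1 read 9.10 in the AKR/J female and 9.13 in the AKR/J male, against a lowest of 9.07, a median of 9.62 and a highest of 10.04 in the others. AKR/J lay at the low end without leaving the range (-0.397 ± 0.0691 units, limma adjusted p = 3.6e-05), and without the AKR/J male the value was -0.461 (limma adjusted p = 0.0031). It was the sole call among 17 measured genes of cholesterol esterification, efflux and synthesis, whose median difference was 0.00439 units, against -0.00319 over all probe sets.

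Of 20 measured genes with known AKR/J or shared strain alleles, 2 were called higher, 2 lower and 16 not. Over all genes, 5.46% were called by their brightest probe set. Glo1, the glyoxalase gene that lies in a segmental duplication carried by several classical strains, read 10.12 in the AKR/J female and 10.24 in the AKR/J male, against 9.10 to 10.57 in the others. Its levels were 10.29 and 10.57 in A/J, 9.97 and 10.37 in C3H/HeJ, and 9.23, 9.59 and 9.10 in C57BL/6J. AKR/J lay among the strains with high Glo1 (0.362 ± 0.104 units, limma adjusted p = 0.027), with 3 of 4 probe sets called higher. Without the AKR/J male the Glo1 difference was 0.253. Tmem87a read 9.15 and 9.34, against a lowest of 7.88, a median of 9.12 and a highest of 9.27 (0.376 ± 0.0763 units, limma adjusted p = 0.00056). The AKR/J female thus lay near the median of the others, and without the AKR/J male the difference was 0.269. With strain values as replicates Tmem87a missed the threshold (limma adjusted p = 0.98). H2-K1 and H2-D1 were the 2 called lower. Thy1, whose product differs in AKR/J by its Thy1.1 form, read 10.61 and 10.62, against 10.14 to 10.94, and was not called.

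None of the 15 measured genes for retrovirus receptors, restriction and silencing was called, nor any of 8 complement genes, by the limma test at an adjusted p under 0.05. Among 15 genes of MHC class I and the interferon response, Psmb8 (0.156 ± 0.0473, limma adjusted p = 0.039) and Ifit3 (0.185 ± 0.0476, limma adjusted p = 0.011) were called higher and H2-K1 and H2-D1 lower. Over all genes, 5.46% were called in either direction by their brightest probe set. Without the AKR/J male the difference was 0.0461 for Psmb8, 0.167 for Ifit3, -0.423 for H2-K1 and -0.447 for H2-D1.

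Of 10 microglial markers, 2 were called higher in AKR/J (5.46% of all genes were called in either direction by their brightest probe set). Aif1, the calcium-binding protein Iba1 of microglia, read 8.08 in the AKR/J female and 8.55 in the AKR/J male, against 7.68 to 8.20 in the others (0.413 ± 0.0664 units, limma adjusted p = 6.0e-06). Csf1r, the receptor that microglia need to survive, read 9.76 and 9.94, against 9.41 to 10.04 (0.213 ± 0.0644 units, limma adjusted p = 0.039). The microglial list averaged 8.50 and 8.67 in AKR/J, against 8.19 to 8.58 in the others, with a median difference of 0.170 units, and the AKR/J male alone lay above the range. Slc1a2, the main glutamate transporter of astrocytes, was the sole call among 10 astrocyte markers. It read 10.69 and 10.28 in AKR/J, against 10.68 to 11.52 in the others (-0.623 ± 0.106 units, limma adjusted p = 2.2e-05). The call rests on 1 of 5 probe sets for Slc1a2 and on 1 of 3 for Csf1r. In the dentate granule list C1ql2 was called lower (-0.349 ± 0.0876, limma adjusted p = 0.0082) and Penk higher. None of these 5 was called without the AKR/J male, where the difference was 0.2 for Aif1, 0.138 for Csf1r, -0.454 for Slc1a2, -0.305 for C1ql2 and -0.0175 for Penk.

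No member was called by the limma test among 11 pyramidal, 12 interneuron, 11 myelin, 8 endothelial, 9 choroid plexus and 2 erythroid markers, 12 immediate early genes, or 4 Y-linked and X-inactivation genes. Reln, the signalling protein of Cajal-Retzius cells and interneurons, was the sole list member by its brightest probe set with both AKR/J arrays outside the others, at 8.78 and 8.83, against 8.89 to 9.30, yet was not called (-0.281 ± 0.0973 units, limma adjusted p = 0.083). The choroid plexus list averaged 8.66 and 8.43 in AKR/J, against 7.76 to 9.07 in the others, so AKR/J lay inside a wide range. The immediate early genes, which neuronal activity induces, averaged 8.58 in the AKR/J female and 8.33 in the AKR/J male, against 8.35 to 8.79 in the others, so the male lay just below the range.

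Set against each of the other strains on its own, AKR/J differed at 561 probe sets with BALB/cByJ, 570 with C57BL/6ByJ and 682 with C3H/HeJ, and at 3167 with C57BL/6J and 3246 with NZO/HlLtJ. These counts share the 2 AKR/J arrays, and the other strain had 1 array for BALB/cByJ, 3 for C57BL/6J and BALB/cJ, and 2 for the rest.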

How the data were processed

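RNA of hippocampus pools was hybridised to Affymetrix M430 2.0 arrays. The main values are the authors' deposited PDNN scores, 1 per probe set and array, with RMA and MAS5 scores as alternatives. No label or header states their scaling or log base. Precision is limited by the 2 AKR/J arrays. limma 3.58.1 in R 4.3.3 fitted strain, sex and batch to 199 columns, after averaging a technical duplicate and dropping a mixed-sex array, with 92 residual degrees of freedom. AKR/J was set against the equally weighted mean of 12 strains, and against each of them, with Benjamini-Hochberg adjustment over 45037 probe sets (64 control probe sets left out). Both tests were run on simulated data with all other strains at a common mean and independent noise. A shift of 0.25 units was recovered in 50% of cases against the mean and in 8% beyond every strain. At 0.5 units these shares were 98% and 68%. Differences among the other strains and signal from other tissue were not simulated. Genes came from the platform annotation, where 34945 probe sets have 1 symbol, 932 several and 9160 none. Of probe sets called and outside the range of the other 25 arrays, the 15 genes with the largest gap above and the 15 below were named. Members and lists were chosen with earlier results of these data known, and the striatal list after values were seen. Headers of 7 arrays, 1 of them KK/HIJ and none AKR/J, disagree with the labels.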

Additional observations from a re-analysis of the deposited data

How the results depend on the processing

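Against the mean of the other strains, 1835 probe sets were called. With other settings there were 165 in the 27 classical arrays alone, 1107 with MAS5 values (392 higher, 715 lower), 1013 with no batch term (357 higher, 656 lower) and 5 with strain values as replicates. The split was 873 higher and 962 lower in the reported fit. Leaving out 1 array at a time gave 213 to 4063, the lowest without the AKR/J male and the highest without the AKR/J female. Beyond every other strain there were 5 probe sets, against 1 in the 27 arrays alone, 8 with MAS5 values and 1 to 12 leaving out 1 array (1 without the AKR/J male, 12 without the AKR/J female, 8 without the BALB/cByJ array and 3 without C57BL/6ByJ replicate 1). Both AKR/J arrays lay outside the others at 321 probe sets, against 145 of those with a mean of 8 or more, 1170 against JAX arrays alone, 506 with RMA values without C57BL/6J, whose columns there go against their labels (chosen after seeing the data), 596 without arrays of a high outlier share, and 322 to 5550 leaving out 1 array (5550 without the AKR/J female, 2103 without the AKR/J male). Of the gene lists 14 members were called, against 23 over all probe sets of each member and 1 to 25 leaving out an AKR/J array. Of 1252 values of the 30 named genes under the alternatives, 1173 were unchanged and 61 were no longer past the threshold. Another 18, all within-batch values, moved by more than the replicate spread, and 0 reversed. Unchanged values kept their direction and their side of the threshold. Within-batch values had no test, and counted as unchanged where they kept their direction and moved by no more than that spread. Leaving out arrays can only raise the count outside the range, and the filter on the mean can only lower it. The cause of the other changes was not tested. No paired analysis was possible because the replicate numbers were given in accession order and pair no samples. Each AKR/J sex was run in 1 batch, so sex and batch cannot be told apart within AKR/J.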
